A study of Homo sapiens with 4 samples.

Results

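The subunits of the respiratory chain and of ATP synthase are encoded partly in mitochondrial DNA and partly in the nucleus, and their mRNAs were described here by complex and by genome. Genes were taken by symbol: the protein-coding mitochondrial genes MT-ND, MT-CO, MT-CYB and MT-ATP, and the nuclear NDUFA, NDUFB, NDUFC, NDUFS, NDUFV, SDHA to SDHD, UQCR, COX4 to COX8, ATP5F1, ATP5M and ATP5P genes. This gave 100 of the 35604 genes, 13 mitochondrial and 87 nuclear. The 12 assembly factors with matching symbols were left out by the rule, and 2 read-through genes, NDUFC2-KCTD14 and ATP5MF-PTCD1, were left out because their transcripts join a subunit gene to a neighbour. RNA selected by its poly-A tail came from iMGL, cells resembling microglia that were grown out of the established human iPSC line WTC11. The groups were WT, the unedited genotype, with 2 libraries, and S1KO, edited to lack SHIP1 (the inositol phosphatase encoded by INPP5D), also with 2. Both genotypes share the 1 parental line. Per the series' design text 2 clones of each genotype were used, but no label ties a library to a clone, so p-values measure only the spread between these libraries, which may be technical.

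The respiratory chain passes electrons from NADH (complex I) and succinate (complex II) through complex III and cytochrome c to oxygen at complex IV, and pumps protons that drive ATP synthase, called complex V here. Mitochondrial DNA encodes the core, membrane-embedded subunits of complexes I, III, IV and V and none of complex II. It is transcribed from both strands as long precursors that are cut at the tRNAs between the genes, whereas each nuclear subunit has its own promoter and its protein is imported.

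Several features of the mitochondrial mRNAs bear on how their reads are counted, and their sequences are shown for that reason (GENCODE 29, GRCh38). MT-ATP8 and MT-ATP6 are read from 1 shared mRNA in which the 2 reading frames overlap by 46 bases, and MT-ND4L and MT-ND4 overlap by 7 bases. A read lying wholly within the 46 bases would fit both genes, whereas the 7 bases are too short to hold a read. The deposited values do not show how reads at the junctions were assigned. The junctions are given below with the overlap in capitals, on the plus strand at chrM:8507-8592 and chrM:10730-10796.
MT-ATP8 into MT-ATP6: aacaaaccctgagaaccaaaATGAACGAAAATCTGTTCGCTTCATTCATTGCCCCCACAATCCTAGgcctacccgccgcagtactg
MT-ND4L into MT-ND4: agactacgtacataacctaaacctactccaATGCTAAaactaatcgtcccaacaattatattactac

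In 6 of the 13 genes the annotated sequence ends within a stop codon, which is known to be completed by the poly-A tail. The last 24 bases of 3 genes show a stop codon that lacks 2 bases, 1 that lacks 1 base and 1 that is whole, with the stop codon or its part in capitals.
MT-CYB: aaaacaaaatactcaaatgggccT
MT-ND1: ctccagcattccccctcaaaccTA
MT-ATP6: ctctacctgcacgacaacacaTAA

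MT-ND6 alone among the 13 lies on the minus strand (chrM:14149-14673). No source used here gives the strand setting of the library, so reads of MT-ND6 and of RNA from the opposite strand at that place cannot be told apart.

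Libraries held 21516813 to 25927881 estimated counts. The knockout label was checked on INPP5D, with 355.6 and 440.9 CPM in the WT libraries against 81.0 and 97.6 CPM in the S1KO libraries (log2 fold change -2.16, adjusted p = 0.0184, edgeR). CPM are counts brought to a common library total with TMM factors, which set most genes level between libraries. All 18 microglia and macrophage markers had at least 3 counts in every library, with summed CPM of 6021 and 5894 in WT and 3849 and 4055 in S1KO. WT 1 stood apart by mesenchymal markers, with a summed CPM of 3231 against 4.4 to 19.8 in the other libraries. The 4 tested markers of pluripotent stem cells were higher in both S1KO libraries (median log2 fold change 1.16), with summed CPM over the 6 listed of 5.6 and 7.1 in WT and 14.6 and 15.0 in S1KO. The part of these marker differences in the results was not tested. In bulk RNA, fewer cells of a type and less RNA per cell cannot be told apart.

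All 13 mitochondrial mRNAs lay higher in each S1KO library than in either WT library. Among all 15387 genes tested, 26% had both S1KO libraries above both WT libraries. The median log2 fold change was 2.22, against -0.015 over all genes tested, and single genes lay between 1.93 and 2.32, a 3.82-fold to 4.98-fold difference. None passed edgeR's quasi-likelihood test after Benjamini-Hochberg adjustment: adjusted p was 0.0912 to 0.150, and at an adjusted p of 0.05 the test called 0.942% of genes, 122 higher and 23 lower in S1KO. All 13 had an unadjusted p under 0.05, as did 2993 of the 15387 genes tested. DESeq2 called all 13, where it called 4.23% of genes higher.

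**Figure D1:**
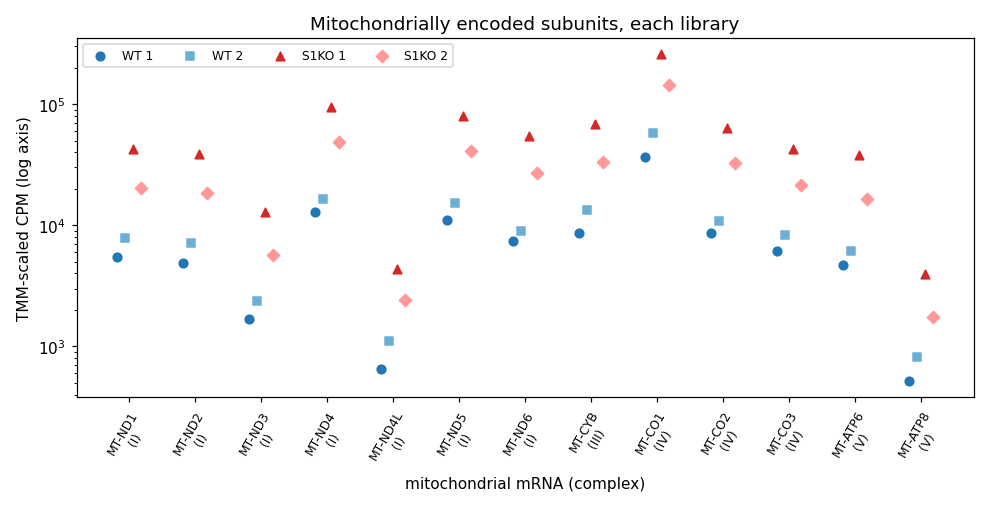
TMM-scaled CPM (log axis) of the 13 mitochondrially encoded subunit mRNAs, 1 point per library, with the complex in brackets. In each gene the order is WT 1, WT 2, S1KO 2, S1KO 1 from low to high, and the 2 groups do not overlap.

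MT-CO1 (chrM:5904-7445) is the catalytic subunit of complex IV. It had 36548 and 57871 CPM in WT and 258245 and 143242 CPM in S1KO. Its log2 fold change was 2.09 ± 0.61 (SE, n = 2 per group; adjusted p = 0.150, edgeR). This was the most abundant subunit mRNA, and also the one with the widest error among the 13. MT-CO2, which takes electrons from cytochrome c, had 8694 and 10873 CPM in WT and 63919 and 32420 CPM in S1KO, a log2 fold change of 2.30 ± 0.50 (adjusted p = 0.0932, edgeR). MT-CO3, also in the catalytic core, had 6169 and 8263 CPM in WT and 42189 and 21489 CPM in S1KO, a log2 fold change of 2.14 ± 0.48.

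MT-CYB, the single mitochondrial subunit of complex III and its cytochrome b, had 8685 and 13372 CPM in WT and 69016 and 33223 CPM in S1KO (log2 fold change 2.21 ± 0.53, adjusted p = 0.107, edgeR). Among the 7 complex I subunits, which form its proton-pumping membrane arm, MT-ND6 on the minus strand had 7424 and 9012 CPM in WT and 54402 and 27018 CPM in S1KO. Its log2 fold change of 2.31 ± 0.49 lay within the range of the 12 genes on the plus strand. Its counts may include reads of RNA from the opposite strand, so this does not compare the 2 strands. MT-ND4L had the smallest difference, with 655 and 1114 CPM in WT and 4351 and 2409 CPM in S1KO (1.93 ± 0.41), and the smallest adjusted p of the 13, at 0.0912 (edgeR). MT-ND1, MT-ND2, MT-ND3, MT-ND4 and MT-ND5 had log2 fold changes of 2.24, 2.25, 2.19, 2.30 and 2.22.

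MT-ATP6, part of the proton channel of ATP synthase, had 4732 and 6130 CPM in WT and 37734 and 16320 CPM in S1KO. Its log2 fold change of 2.32 ± 0.51 was the highest of the 13. MT-ATP8, on the same mRNA, had 518 and 815 CPM in WT and 3938 and 1755 CPM in S1KO (2.09 ± 0.45). The effective length of MT-ATP8, the length over which reads can start, was 51.8 nt, and that of MT-ND4L was 104 nt, so their levels per length depend strongly on that estimate.

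The libraries of 1 genotype also differed from each other in all 13 genes. WT 2 was above WT 1 in all 13, with a median log2 ratio of WT 1 over WT 2 of -0.49. S1KO 1 was above S1KO 2 in all 13, with a median log2 ratio of 1.01. The S1KO libraries were thus further apart than the WT libraries. With each library left out in turn the median log2 fold change was 1.59 to 2.65, the lowest without S1KO 1. Without WT 1, the library with mesenchymal markers, it was 2.00, and 12 of the 13 genes were then called higher (5.9% of all genes tested). Without WT 2, 12 of 13 were also called (5.91% of all genes tested), and MT-CO1 was the gene not called either time. Without either S1KO library none was called, nor was any other gene.

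The makeup of the mitochondrial set changed little. TPM divide by length and by the library total, and allow levels of different genes to be compared. The 13 mRNAs took 24.6% and 30.3% of all TPM in the WT libraries against 66.9% and 54.7% in the S1KO libraries. Within the set, MT-CO1 was first with 16.7%, 19.3%, 16.4% and 18.2% of mitochondrial TPM in WT 1, WT 2, S1KO 1 and S1KO 2. MT-ND6 came second with 15.6%, 13.2%, 15.1% and 15.2%, and MT-CO2 next with 11.9%, 10.5%, 11.8% and 12.02%. MT-CO1, MT-ND6 and MT-CO2 thus held ranks 1 to 3 in every library. The share of MT-ND6 may include reads of RNA from the opposite strand, which cannot be told apart here. The ratio of mean shares, S1KO over WT, ran from 0.842 for MT-ND4L to 1.08 for MT-ND4, and no mean share moved by more than 0.744 percentage points.

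Counts assigned to sequences elsewhere in the genome that resemble mitochondrial DNA moved the same way. Of 15 tested nuclear copies of mitochondrial mRNAs, 14 were higher in both S1KO libraries and 2 were called. The shares over all genes tested were 26% and 0.942%. MTND1P23, a copy of MT-ND1, had 7.86 and 9.16 CPM in WT and 45.8 and 27.9 CPM in S1KO (log2 fold change 2.11, adjusted p = 0.0409, edgeR). These copies held 0.258% to 0.305% as many counts as the genes they resemble, and reads of near-identical sequence cannot be assigned with certainty. The 10 tested copies of the mitochondrial 16S rRNA were all higher in both S1KO libraries. Copies of the 16S rRNA held 6.31% to 12.1% as many counts as the mitochondrial mRNAs. The 16S rRNA itself is not among the transcripts, so its own reads may be counted on these copies.

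The nuclear subunits showed no such difference. Of the 87, 82 had enough counts to be tested: 13 lay above and 39 below both WT libraries in each S1KO library, where 26% and 25.7% of all genes tested did. The median log2 fold change was -0.14, with 29 genes above 0 and 53 below. None passed the threshold in edgeR, 9 had an unadjusted p under 0.05 (2993 of the 15387 genes tested did), and DESeq2 called 1 of the 82, COX6A1, where it called 3.28% of genes lower. The untested 5 were COX4I2, COX6A2, COX7A1, COX7B2 and COX8C, each with at most 8 counts in any library.

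**Figure D2:**
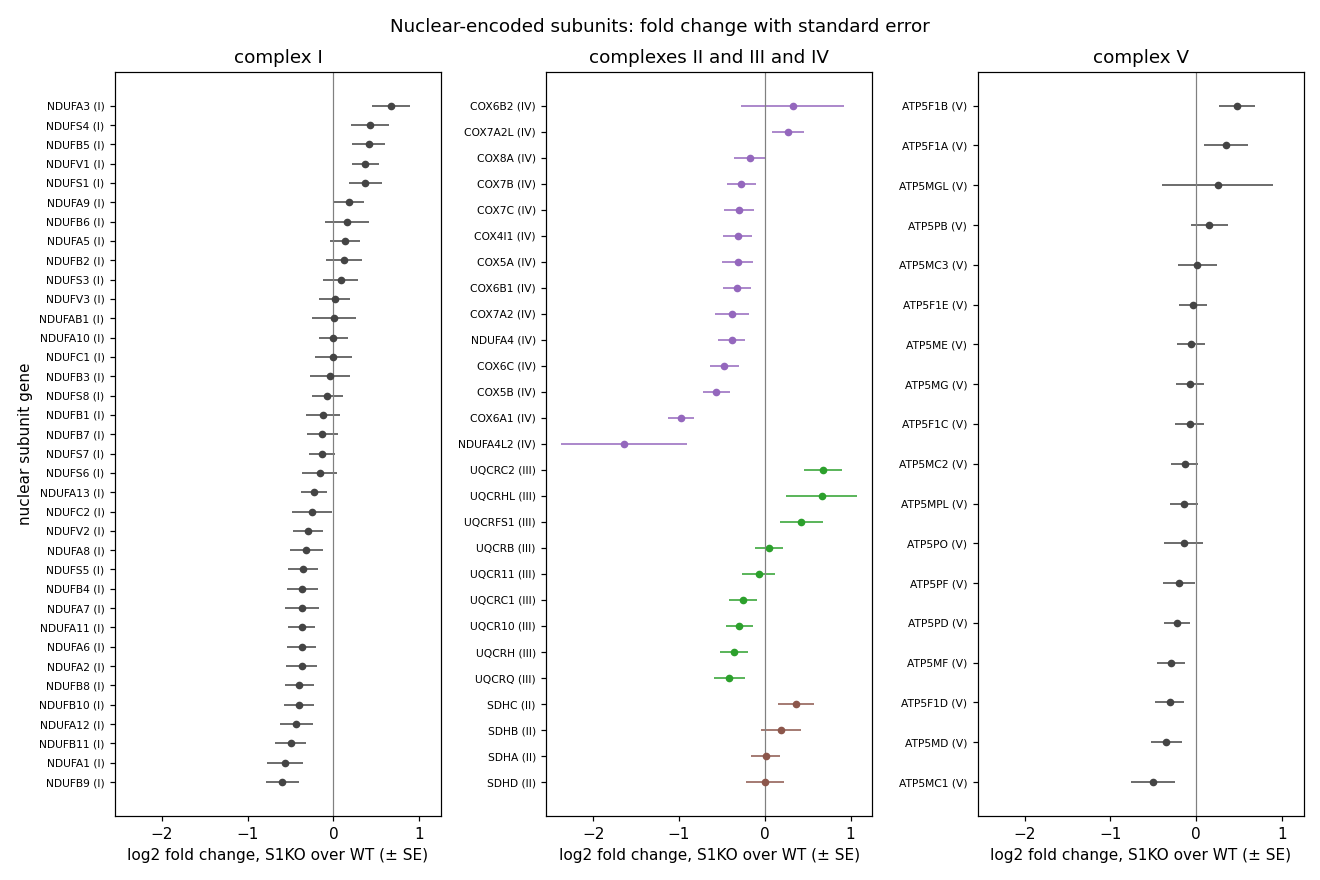
Log2 fold change of S1KO over WT for 81 of the 82 tested nuclear subunits, with the standard error as bars, ordered by value within each complex (complex in brackets). COX6A1 (-0.98) and NDUFA4L2 (-1.64) lie below the rest, and UQCRC2 (0.68) is highest.

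Complex IV had the lowest median, -0.32. Of its 14 tested nuclear subunits 11 were lower in both S1KO libraries, where 25.7% of all genes tested were. Nuclear subunits of any complex with an effective length under 500 nt also had a median of -0.32. Several complex IV subunits are among these, and complex and length were not separated. COX6A1 (chr12:120438090-120440742), which lies around the catalytic core, had 110.1 and 102.8 CPM in WT and 55.0 and 53.0 CPM in S1KO. The groups were far apart and the replicates close, and its log2 fold change was -0.98 ± 0.15 (95% interval -1.35 to -0.61). Its adjusted p was 0.0527 in edgeR, just over the threshold and the smallest of all 100 genes. It was the gene that DESeq2 called (adjusted p = 9.84e-06, DESeq2).

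COX5B, which binds zinc on the matrix side of complex IV, had 67.4 and 74.7 CPM in WT and 49.2 and 46.9 CPM in S1KO (log2 fold change -0.56 ± 0.16, adjusted p = 0.143, edgeR). COX6C had 42.8 and 41.7 CPM in WT and 29.2 and 31.8 CPM in S1KO, a log2 fold change of -0.47 ± 0.17. NDUFA4, named after complex I but known as a subunit of complex IV, had 83.2 and 75.8 CPM in WT and 62.3 and 59.2 CPM in S1KO (-0.39 ± 0.16). In each of these the groups did not overlap, and none passed the test. COX7A2L, which helps join complexes into supercomplexes, was the only nuclear complex IV member higher in both S1KO libraries, with 41.9 and 38.3 CPM in WT and 53.6 and 43.2 CPM in S1KO (0.27 ± 0.18).

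Several complex IV subunits have a second form made in particular tissues, and the general form was the main one here. COX4I1 had 965 and 787 TPM in WT and 288 and 438 TPM in S1KO, and COX4I2, the form of lung and hypoxic cells, had 0 counts in all 4 libraries, at or under the floor of 3 counts. COX6A1 had 543 and 437 TPM in WT and 97.9 and 154 TPM in S1KO, against 1, 8, 0 and 0 counts in WT 1, WT 2, S1KO 1 and S1KO 2 of COX6A2, the heart and muscle form. COX7A1, also of heart and muscle, had 6, 7, 0 and 2 counts, and COX8C had 1 count, in S1KO 2. COX6B2, a testis form, had 13.7, 24.1, 10.9 and 18.0 counts. NDUFA4L2, the relative of NDUFA4 that rises in hypoxia, had 54, 24, 4 and 12 counts, with a log2 fold change of -1.64 ± 0.73 (adjusted p = 0.285, edgeR) that ran from -2.32 to -0.84 with a library left out. The groups did not overlap in CPM but did in TPM, at 6.02 and 1.32 TPM in WT and 0.169 and 4.15 TPM in S1KO. Of 9 hypoxia response genes listed, 7 were tested, with 2 above 0, 5 below and a median log2 fold change of -0.53. The 1 called, against 0.942% of all genes, was the glucose transporter SLC2A1, at 8.04 and 11.1 CPM in WT and 1.95 and 2.07 CPM in S1KO (log2 fold change -2.24, adjusted p = 0.0487, edgeR).

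Complex I had 37 nuclear subunits, with a median log2 fold change of -0.13. Of these, 8 were higher and 17 lower in both S1KO libraries, as were 26% and 25.7% of all genes tested. NDUFB9, accessory to the membrane arm, had 31.0 and 33.7 CPM in WT and 19.1 and 23.6 CPM in S1KO (-0.60 ± 0.19, adjusted p = 0.179, edgeR). NDUFA1 had 52.0 and 68.0 CPM in WT and 45.1 and 36.1 CPM in S1KO (-0.56 ± 0.21), and NDUFB11 55.5 and 44.5 CPM against 35.2 and 35.5 CPM (-0.50 ± 0.18).

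NDUFA3 went the other way, with 13.8 and 10.6 CPM in WT and 19.01 and 19.89 CPM in S1KO (0.67 ± 0.22, adjusted p = 0.186, edgeR). NDUFV1, which binds NADH, had 142.9 and 129.4 CPM in WT and 173.0 and 179.7 CPM in S1KO (0.37 ± 0.16). NDUFS1, which carries iron-sulfur clusters, had 38.9 and 36.9 CPM in WT and 55.4 and 42.8 CPM in S1KO (0.37 ± 0.19). NDUFV2, of the same NADH-binding arm, was on the other side, with 41.5 and 50.2 CPM in WT and 37.7 and 37.0 CPM in S1KO (-0.29 ± 0.18). In these 4 genes the groups did not overlap and the test was not passed. By level per length NDUFS5 was the highest nuclear member of complex I (712 and 597 TPM in WT, 218 and 293 TPM in S1KO) and NDUFB6 the lowest (13.6 and 6.75 TPM as group means).

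Complex II, the single complex made wholly in the nucleus, had a median log2 fold change of 0.098 over its 4 subunits. SDHC, a membrane anchor, had 46.7 and 38.4 CPM in WT and 62.4 and 47.1 CPM in S1KO (0.36 ± 0.21, adjusted p = 0.395, edgeR). SDHA, the flavoprotein that oxidises succinate, had 60.3 and 53.6 CPM in WT and 60.5 and 54.2 CPM in S1KO, a log2 fold change of 0.0089 (95% interval -0.39 to 0.41). The iron-sulfur subunit SDHB and the anchor SDHD had log2 fold changes of 0.19 and 0.0034, with overlapping groups in both.

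The counts of SDHA (chr5:218241-256700) were spread over its transcripts in another way in S1KO. The protein-coding transcript SDHA-201 took 19.7% and 17.1% of the gene's counts in WT and 63.6% and 47.5% in S1KO. SDHA-220, also coding, took 20.1% and 19.8% in WT and 1.37% and 0% in S1KO. With an offset for effective length, which such a shift alters, the log2 fold change of SDHA was -0.45. A search was made among the 78 nuclear members with at least 100 counts in every library. SDHA and ATP5PB were the 2 with a single transcript whose share moved by at least 20 percentage points with the groups apart. Summed by type, the transcripts of NDUFA7 marked for nonsense-mediated decay also moved that far. They took 46.3% and 18.6% of its counts in WT and 3.12% and 17.8% in S1KO. The search was made after the values were seen, and it was not made over all genes. SDHA has near-identical pseudogene copies and the division of reads among transcripts has no error in the deposited values, so these shares are uncertain.

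**Figure D3:**
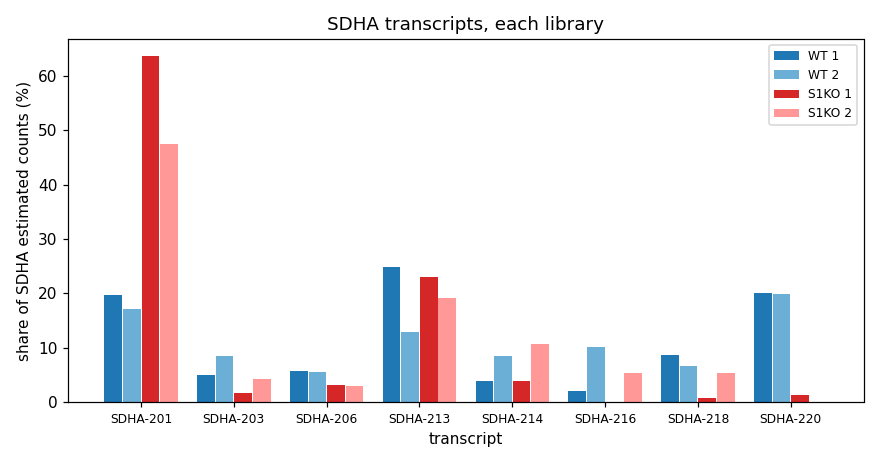
Share of the SDHA estimated counts (%) taken by each transcript that reached 5% in any library, 1 bar per library. The bars of SDHA-201 are higher and those of SDHA-220 lower in both S1KO libraries.

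Complex III had 9 nuclear members with a median log2 fold change of -0.072. UQCRC2, a core protein of its matrix domain (chr16:21952660-21983660), had 61.1 and 47.7 CPM in WT and 100.7 and 73.7 CPM in S1KO. Its log2 fold change was 0.68 ± 0.22, the highest of the nuclear set, with an adjusted p of 0.180 (edgeR). The small subunits UQCRQ and UQCRH were lower in both S1KO libraries, at -0.42 ± 0.18 and -0.36 ± 0.16. UQCRHL, at 1.75 and 2.68 CPM in WT and 3.37 and 3.67 CPM in S1KO, is nearly identical to UQCRH, so its counts are uncertain.

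ATP synthase had 18 nuclear members and a median of -0.10. In both S1KO libraries 1 gene was higher and 7 were lower, where 26% and 25.7% of all genes tested were. ATP5F1B, the catalytic beta chain, had 166.5 and 132.1 CPM in WT and 232.9 and 182.9 CPM in S1KO (0.48 ± 0.21, adjusted p = 0.273, edgeR). The alpha chain ATP5F1A had 252.1 and 170.0 CPM in WT and 307.8 and 229.9 CPM in S1KO (0.35 ± 0.25), and here the groups overlapped. ATP5MC1, ATP5MC2 and ATP5MC3 encode the same mature c subunit of the rotor. ATP5MC1 had 56.3 and 34.5 CPM in WT and 32.1 and 31.8 CPM in S1KO (-0.51 ± 0.25), where WT 1 alone was high. ATP5MC2 and ATP5MC3 had log2 fold changes of -0.13 and 0.014. By level per length ATP5ME was highest (522 and 493 TPM in WT, 178 and 313 TPM in S1KO) and ATP5MGL lowest, at under 3 TPM in every library.

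The 2 genomes were then set against each other within each library, as the geometric mean TPM of the 13 mitochondrial over that of the 82 tested nuclear genes. The ratio was 147 in WT 1, 228 in WT 2, 1232 in S1KO 1 and 641 in S1KO 2. Both S1KO libraries were above both WT libraries, by 2.28 on the log2 scale (WT 7.52 ± 0.45, S1KO 9.80 ± 0.67; SD, n = 2 each; exact permutation p = 0.333, two-sided, the smallest that 2 against 2 allows). By complex the log2 difference was 2.28 for complex I, 2.17 for complex III, 2.48 for complex IV and 2.21 for complex V. With each library left out it was 1.81 to 2.75. A ratio within a library does not depend on the library total.

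**Figure D4:**
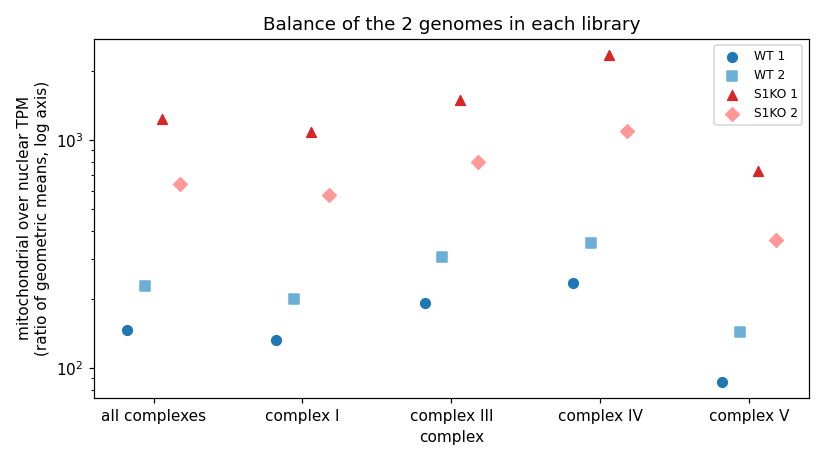
Ratio of the geometric mean TPM of mitochondrial to nuclear subunits (log axis) for all complexes and for complexes I, III, IV and V, 1 point per library. In every complex the order is WT 1, WT 2, S1KO 2, S1KO 1 from low to high.

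What counts as level depends on the scale. On plain TPM, where mitochondrial mRNAs take part of a fixed total, limma on log2(TPM + 1) gave the nuclear subunits a median of -1.16 and called 30 of the 82 lower. It gave all genes tested a median of -0.78 and called 18% of them lower. With TPM rescaled to the nuclear total the nuclear subunits had a median of -0.099 and all genes tested 0.062, and none of the 82 was called. Nuclear subunits took 0.844% and 0.752% of the nuclear counts in WT and 0.810% and 0.754% in S1KO.

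Among the nuclear subunits the fold change went with transcript length, a pattern noticed after the values were seen. The 37 genes with an effective length under 500 nt had a median log2 fold change of -0.32, with 33 below 0. The 24 genes of 500 to 1000 nt had -0.13, and the 21 genes over 1000 nt had 0.27, with 18 above 0. Other protein-coding genes in the same length ranges had medians of -0.098, -0.092 and -0.011. Those with a mean TPM of at least 50 had -0.15, -0.099 and -0.072, and under 500 nt 123 of these 160 genes were below 0. Across the 82 genes Pearson's r between log2 fold change and log length was 0.48 and Spearman's rho 0.52, and over other protein-coding genes r was 0.061. Genes of 1 set of libraries are not independent replicates, so these are descriptions. The r stayed between 0.408 and 0.526 over the alternatives, including the offset for effective length (0.46).

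**Figure D5:**
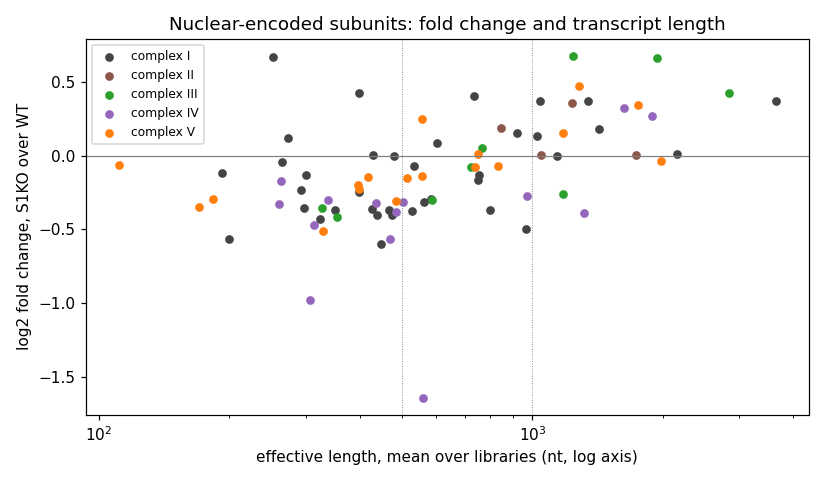
Log2 fold change of S1KO over WT against effective length (nt, log axis) for the 82 tested nuclear subunits, coloured by complex. Dotted lines mark 500 and 1000 nt. Most genes left of the first line lie below 0 and most right of the second lie above 0.

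Promoters of nuclear subunit genes are known as targets of NRF1 and of the ETS family factor GABP (NRF2). The 250 bases before the start were searched on both strands for GCGCATGC (the NRF1 core, reverse complement GCATGCGC) and for CCGGAAGT (an ETS motif, reverse complement ACTTCCGG). GCGCATGC and its reverse complement can overlap each other, and an NRF1 match and an ETS match can share an end letter. The promoter table of RefSeq (GRCh38.p14) held 82 promoters of 69 of the 87 nuclear members. GCGCATGC was in 17.1% of them against 2.63% of all promoters, and CCGGAAGT in 14.6% against 3.42%. The 13 members with GCGCATGC had a median log2 fold change of -0.13 and the 53 tested members without it -0.14. The 12 members with CCGGAAGT had -0.21 and the 54 without it -0.13. Below are the promoters of COX6A1 and COX5B, the nuclear complex IV genes of smallest p, and of NDUFS1, one of the long subunits above 0, with both motifs in capitals. They lie at chr12:120437863-120438112 (plus strand), chr2:97645812-97646061 (plus strand) and chr2:206159445-206159694 (minus strand).
COX6A1: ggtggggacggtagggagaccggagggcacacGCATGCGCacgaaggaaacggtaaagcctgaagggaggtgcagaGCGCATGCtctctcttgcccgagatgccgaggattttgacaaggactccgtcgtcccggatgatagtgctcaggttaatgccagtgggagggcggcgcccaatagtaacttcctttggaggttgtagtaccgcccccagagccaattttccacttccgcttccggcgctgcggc
COX5B: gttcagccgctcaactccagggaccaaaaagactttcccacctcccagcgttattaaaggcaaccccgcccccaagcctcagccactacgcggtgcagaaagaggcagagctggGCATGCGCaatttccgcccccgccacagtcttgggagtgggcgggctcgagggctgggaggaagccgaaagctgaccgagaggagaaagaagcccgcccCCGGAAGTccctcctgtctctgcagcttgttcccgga
NDUFS1: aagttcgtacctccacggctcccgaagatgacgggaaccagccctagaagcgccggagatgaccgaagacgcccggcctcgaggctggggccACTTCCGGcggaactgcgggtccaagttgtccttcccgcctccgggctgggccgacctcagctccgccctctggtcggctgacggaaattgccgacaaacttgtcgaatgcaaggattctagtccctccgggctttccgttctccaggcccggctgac

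COX6A1 held the NRF1 core on 2 places and no ETS match, COX5B held both motifs, and NDUFS1, which has 2 promoters in the table, held the ETS match in the one shown. These are matches of letters and not measured binding.

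Genes that build, feed or regulate the chain were read from lists of other pathway members. None was called by edgeR in any of the 9 lists (112 genes tested), where it called 0.942% of all genes tested. Of the 112, 6 had an unadjusted p under 0.05, as did 2993 of the 15387 genes tested. DESeq2 called 1 of the 112, where it called 7.51% of all genes tested. The 22 assembly factors of complex IV had a median log2 fold change of -0.13 (10 above 0, 12 below), and the 17 of complex I -0.11 (4 above, 13 below). TTC19, an assembly factor of complex III, had the smallest adjusted p of all these lists, 0.103 (edgeR), with a log2 fold change of 0.70 ± 0.17. The 18 tested genes of mitochondrial transcription and RNA stability had a median of -0.077, with 6 above 0 and 12 below. The 14 TCA cycle genes had a median of 0.020, and 10 nuclear regulators of respiratory genes 0.038.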

How the data were processed

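RNA-seq of 2 WT and 2 S1KO libraries was used. Per the submitters' processing notes, reads were quantified with kallisto on hg38; no source used here gives its version or transcript set. Per the file headers, the authors deposited an estimated count and a TPM for each transcript of each library, unpooled. Transcripts were summed to genes with GENCODE 29 (169797 matched by identifier, 15521 by symbol, 3435 without a gene name and left out, 0.323% to 0.643% of counts). Gene sums were rounded to whole numbers, filtered with filterByExpr, which left 15387 of 35604 genes, and given TMM factors of 1.31 and 1.22 (WT) and 0.653 and 0.957 (S1KO). The test was edgeR 4.0.16 (quasi-likelihood, two-sided, genotype as the only term, R 4.3.3) with Benjamini-Hochberg adjustment at 0.05 over all genes tested. Fold changes in TPM used limma 3.58.1 on log2(TPM + 1) or log2(TPM + 0.1), computed from the deposited TPM, so low genes are understated. DESeq2 1.42.0 was another test.

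Total estimated counts were 21516813 to 25927881, and of these 14.29%, 19.02%, 52.49% and 39.41% of the named counts lay on mitochondrial mRNAs. Without these and without the nuclear copies of mitochondrial mRNAs and 16S rRNA, 9319000 to 20540060 counts per library were left, called nuclear counts. The labels do not say that libraries are separate cultures.

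Genes described are every member past the threshold, the 2 of smallest p and the highest and lowest by TPM in each class of complex and genome, pairs of tissue forms, and other members with their values. The values of 1 member are not reported here; it is kept in counts and medians. Members and lists were chosen with earlier results of these data known. Alternatives were another size factor, DESeq2, no filter and a stricter one (1 CPM in 2 libraries and mean TPM of 1), each library left out, the replicate block, an offset for effective length, TPM with limma, scaling on nuclear genes, protein-coding transcripts only, pseudogene copies added, and, chosen after seeing the data, edgeR's legacy setting off, the ratio with each library left out and the split by length.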

Additional observations from a re-analysis of the deposited data

How the results depend on the processing

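The direction of the mitochondrial subunits held in every alternative run, and 33 of the 52 named members with a fold change turned sign in none. Calls depended strongly on the setting, and the cause was not tested. Genes called higher and lower over all genes were 651 and 504 with DESeq2 as the test, 586 and 775 with no filter, and 17 and 4 with protein-coding transcripts only. Lower calls were 49 with the stricter filter, 37 with the legacy setting off, 2763 with limma on log2(TPM + 1) and 2521 with log2(TPM + 0.1), and higher calls were 274 with TPM rescaled to the nuclear total. Leaving out a library gave 0 to 959 higher and 0 to 1181 lower: without either S1KO library none was called. The 13 mitochondrial genes were all called with DESeq2 and with no filter, and 0 to 12 were called with a library left out. Their median was 1.18 with both TPM pseudocounts and 1.59 to 2.65 with a library left out. Of the nuclear subunits 1, COX6A1, was called lower with DESeq2, no filter, the stricter filter and the legacy setting off, 30 and 27 with log2(TPM + 1) and log2(TPM + 0.1), and 0 to 3 lower and 0 to 2 higher with a library left out. Their median was -1.16 and -1.18 on the 2 TPM scales.

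The replicate numbers did not pair the libraries (correlation of the deviations of WT 1 and S1KO 1 across tested genes, r = 0.0249), and the fit with the replicate block called 0 genes in either direction, 0 mitochondrial and 0 nuclear subunits, with medians of 2.16 and -0.14.

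Signs turned mostly on TPM. With log2(TPM + 1) and log2(TPM + 0.1) the values were: NDUFA3 -0.36 and -0.37, NDUFB6 -0.92 and -1.01, SDHC -0.51 and -0.52, SDHB -0.77 and -0.79, SDHA -1.39 and -1.43, SDHD -0.95 and -0.97, UQCRC2 -0.58 and -0.59, UQCRHL -0.15 and -0.25, ATP5F1B -0.65 and -0.65, ATP5MGL -0.48 and -0.74, COX6B2 -0.22 and -0.60, ATP5MC3 -0.99 and -0.999, NDUFV1 -0.69 and -0.70, NDUFS1 -0.68 and -0.74, NDUFS4 -0.55 and -0.57, NDUFB5 -0.72 and -0.73, ATP5F1A -0.67 and -0.67, COX7A2L -0.62 and -0.65. With the effective length offset NDUFB6 had -0.014, SDHA -0.45 and ATP5MC3 -0.018. With no filter SDHA had -0.011, SDHD -0.017 and ATP5MC3 -0.0065. SDHA had -0.35 with TPM rescaled to the nuclear total, and SDHD had -5.4e-05 with DESeq2's size factors and -0.00019 with DESeq2. With a library left out NDUFB6 ran from -0.018 to 0.29, SDHB from -0.031 to 0.45, SDHA from -0.082 to 0.097, SDHD from -0.22 to 0.27, ATP5MGL from -0.37 to 0.69, COX8A from -0.36 to 0.046 and ATP5MC3 from -0.21 to 0.29. Where 1 library was left in a group, its spread was taken from the other group. The S1KO libraries held fewer nuclear counts than the WT libraries, which limits the counting precision of nuclear subunits there.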

Other observations

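Both read-through genes left out of the set were lower in both S1KO libraries, as were 25.7% of all genes tested. ATP5MF-PTCD1 had 86.7 and 53.7 counts (WT) against 2.04 and 2.15 counts (S1KO) (log2 fold change -4.37, adjusted p = 0.0558, edgeR), while ATP5MF itself had -0.29. NDUFC2-KCTD14 had 71.4 and 41.2 counts (WT) against 0 and 9.99 counts (S1KO; log2 fold change -2.88, adjusted p = 0.214, edgeR). Their reads are shared with the subunit gene and with the neighbour, so the division between them is uncertain. In S1KO, the counts of ATP5MF-PTCD1 and the 0 of NDUFC2-KCTD14 lie under the floor of 3 counts. The size of both fold changes is thus uncertain.

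The retained-intron transcript ATP5MPL-207 took 2.14% and 2.73% of the counts of ATP5MPL, a small subunit of ATP synthase, in WT and 12.3% and 14.8% in S1KO. The retained-intron share was taken over the 49 nuclear members that list such a transcript. It was higher in both S1KO libraries in 12 and lower in both in 9. This count was not made over all genes, so it has no background to be set against. ATP5MPL was named after its values were seen. Retained-intron transcripts took 6.52% and 7.31% of all nuclear subunit counts in WT and 5.83% and 8.37% in S1KO, where the groups overlap.

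In ATP5PB, the peripheral stalk subunit, the coding transcript ATP5PB-202 held 42.1% and 30.7% of counts in WT against 70.4% and 49.3% in S1KO. It was found by the same search as SDHA-201, made after the values were seen. The division of reads among transcripts has no error in the deposited values, so these shares are uncertain too.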
